A study of Mus musculus with 24 samples.

Results

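The Hox genes are a family of homeodomain transcription factors that lie side by side in 4 clusters, a to d, and give cells of the embryo their address along the body axis. The genes described here are the rows of the deposited count table that are typed as protein coding and carry a symbol of the letters Hox, a cluster letter from a to d and a paralog number. They came to 39 of 47967 genes, with 11 in cluster a, 10 in cluster b, 9 in cluster c and 9 in cluster d. The libraries were made from fibroblasts of C57BL/6 mouse embryos at embryonic days 13.5 to 14.5 (MEFs), in a study of the factors that turn fibroblasts into heart muscle-like cells. The cells were transduced with retroviruses and then kept in an induction medium until RNA was taken on day 2 or day 7. The cocktail GMT delivered Gata4, Mef2c and Tbx5, which are transcription factors of the developing heart. GHMT added Hand2, a helix-loop-helix factor of heart and limb, and AGHMT added Akt1, a kinase of growth factor signalling, to GHMT. Mock cells served as control; whether they received an empty virus is not stated. Each of the 8 groups, which are mock, GMT, GHMT and AGHMT at day 2 and at day 7, held 3 libraries. Whether replicates came from separate cultures or embryos is not stated, and the p-values therefore describe how far these libraries spread, which may be technical.

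Within a cluster the Hox genes are transcribed from the same strand and are opened in sequence, so that genes of low paralog number (the 3′ side) act early and towards the head, and genes of high paralog number (the 5′ side) act late and towards the tail and the ends of the limbs. Genes with the same number in different clusters are paralogs descended from 1 ancestral gene and often share functions. Fibroblasts keep the Hox pattern of the place in the body they came from for many divisions, and for that reason the pattern is read as a positional identity. In the GENCODE annotation of the mouse build GRCm38, cluster a lies on chromosome 6 on the minus strand, while cluster b spanned chr11:96194316-96368256, cluster c chr15:102921103-103036852 and cluster d chr2:74668310-74765142, each of those 3 on the plus strand.

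Libraries held 29345957 to 37495178 counts assigned to genes, and levels are given as CPM, the counts scaled by library size after correction by the trimmed mean of M-values. The introduced factors were higher in the libraries labelled with them. Gata4, for example, stood at 1.33 to 1.87 CPM in the mock libraries and at 626.8 to 1508 CPM in the cocktail libraries, and Hand2 was at 935.1 to 1188 CPM in GHMT and AGHMT and at 3.09 to 8.05 CPM elsewhere. Akt1, which the fibroblasts express themselves, differed far less, at 444.7 to 484.8 CPM in AGHMT and 359.5 to 403.7 CPM in all other libraries, without overlap. The fibroblast label was checked with 10 marker genes, none of which was at 0 in any group, with a summed level of 30230 to 33670 CPM in mock at day 2 and 62300 to 67700 CPM in mock at day 7. Replicate 3 of AGHMT at day 2 stood apart from its group, with a chi-square per degree of freedom of 38.9 and 41.7 against the other replicates, where all other pairs of replicates lay at or below 10.5. Without that library the log2 fold changes of AGHMT against mock at day 2 moved by a median of 0.06 and by at most 0.49 over the 38 genes, and 1 call, that of Hoxa6, was lost (adjusted p = 0.186).

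In mock cells all 4 clusters were expressed. The summed level of the genes of a cluster at day 2 was 110.3 ± 3.77 CPM for a, 103 ± 3.31 CPM for b, 102 ± 3.93 CPM for c and 82.9 ± 1.11 CPM for d (mean ± SD, n = 3 here and below). Compared per kilobase of merged exons, Hoxb9, which patterns the rib-bearing vertebrae with its paralogs, was the most abundant at both times, at 21.6 ± 0.67 CPM per kb at day 2 and 24.4 ± 0.69 at day 7. At day 2 it was followed by Hoxd13 (17.8 ± 0.412), Hoxc6 (12.2 ± 0.459) and Hoxa10 (11.8 ± 0.331), and the last pair did not differ beyond their SDs. At day 7 the order on the same scale was Hoxb9, Hoxc6 (18.6 ± 0.685), Hoxc8 (14.8 ± 0.764), Hoxd13 (14.7 ± 1.06), Hoxd8 (13.1 ± 0.106) and Hoxa10 (11.5 ± 0.764), with Hoxc8 and Hoxd13 within their SDs of each other. The leading genes thus came from all 4 clusters and from paralog numbers 6 to 13. At the other end, Hoxb1, a gene of the hindbrain and of early heart progenitors, had 0 or 1 count in every library, at or below the floor of 3 counts, and was not tested. Hoxd1, Hoxd3, Hoxa4 and Hoxb2 were also among the lowest of the tested genes in mock.

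**Figure D1:**
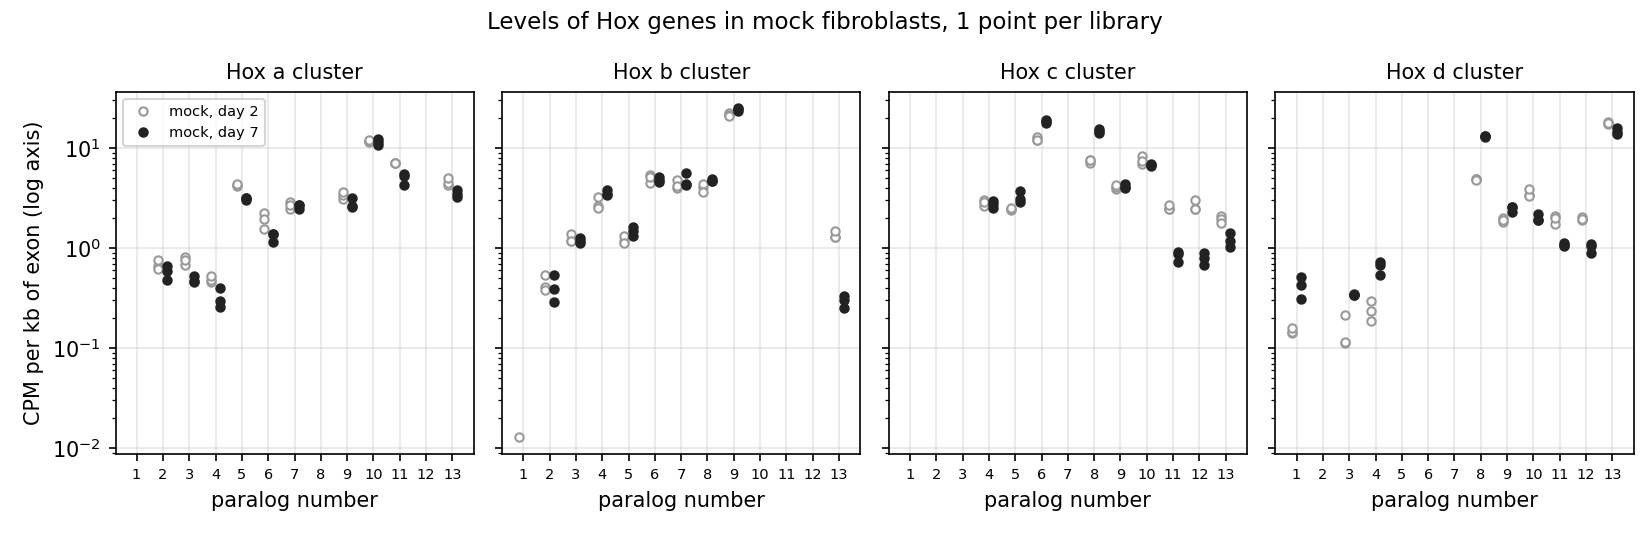
Levels of 38 of the 39 Hox genes in mock cells at day 2 and day 7, in CPM per kb of merged exons on a log axis, against paralog number in each cluster; points are single libraries, and libraries at 0 (Hoxb1) are not shown. Hoxb9, Hoxc6, Hoxc8, Hoxd13, Hoxd8 and Hoxa10 are the highest at day 7, and Hoxd1, Hoxd3, Hoxa4 and Hoxb2 are among the lowest at both times.

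Against mock of the same day, more Hox genes fell than rose with each of the 3 cocktails. Of the 39 genes, 38 passed the filter on low counts and were tested. At day 2, 26 of the 38 tested genes fell and 3 rose with GMT, 22 fell and 4 rose with GHMT, and 21 fell and 3 rose with AGHMT, where 33.1%, 33.3% and 37.4% of all genes tested fell and 33.9%, 34.9% and 38% rose (edgeR's quasi-likelihood test, adjusted p under 0.05). At day 7, 20 genes fell with each cocktail, and 9, 8 and 8 rose with GMT, GHMT and AGHMT; over all genes tested, 36%, 35.6% and 38.1% fell and 37.1%, 36.3% and 38.6% rose. The median log2 fold change over the Hox genes was -0.50, -0.28 and -0.52 at day 2 and -0.48, -0.47 and -0.29 at day 7, in the order GMT, GHMT, AGHMT, and the AGHMT value at day 7 was the same with Hoxd1, which was at 0 there, set at its bound. Falls of at least 2-fold at day 7 numbered 12, 12 and 9 of 38, beside 14.7%, 14.1% and 15.4% of all genes. Rises of at least 2-fold numbered 3, 2 and 1, beside 15.7%, 15.6% and 18.2% of all genes. The comparisons of 1 day share the same 3 mock libraries, so their counts are not independent of each other. No Hox gene was called higher in one cocktail and lower in another on the same day.

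**Figure D2:**
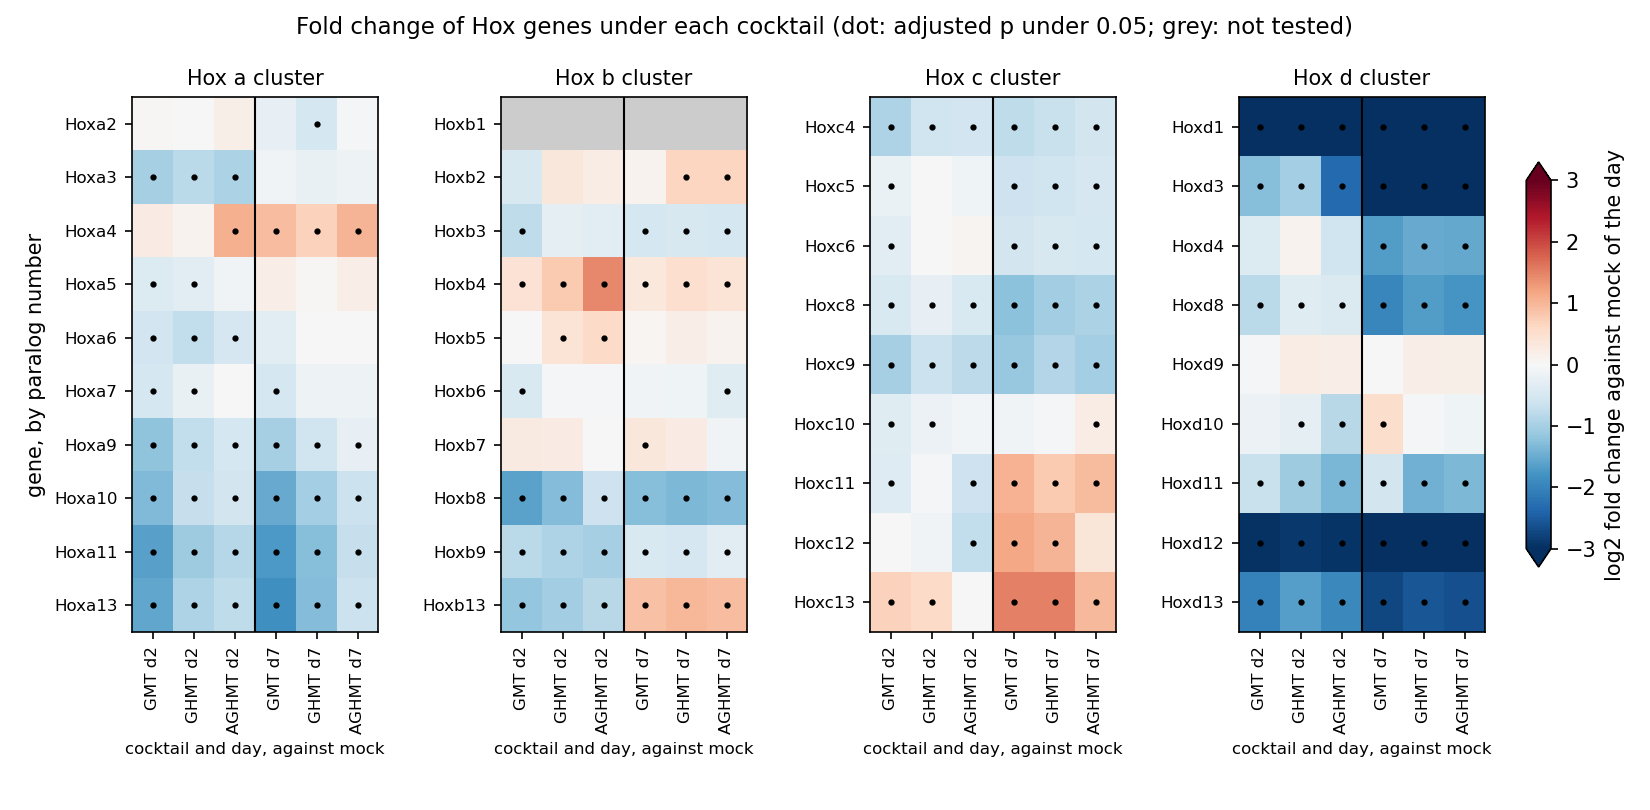
Log2 fold change against mock of the same day, as colour (red higher, blue lower, with the scale ending at 3 in either direction), for 38 of the 39 Hox genes in rows by cluster and for the 3 cocktails at day 2 and day 7 in columns; dots mark an adjusted p under 0.05, and grey marks Hoxb1, which was not tested. At day 7, 7 of the 9 genes of cluster d (all but Hoxd9 and Hoxd10) and the 4 genes on the 5′ side of cluster a are blue with each cocktail, while Hoxc11 to Hoxc13 are red.

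The summed level of all 39 genes was 431 ± 6.07 CPM in mock at day 7, 257 ± 3.45 with GMT, 274 ± 9.35 with GHMT and 288 ± 7.54 with AGHMT, and every cocktail library lay below every mock library. In bulk RNA, fewer cells of a type and less RNA per cell cannot be told apart. The summed fibroblast markers were also lower with the cocktails than in mock. They stood at 14350 to 19480 CPM at day 2 and at 5180 to 10770 CPM at day 7, with 10 of 10 markers lower in each cocktail at day 7. Between the days the markers thus fell with each cocktail. The summed Hox level at day 2 was 399 ± 7.29 CPM in mock and 236 ± 1.41, 279 ± 2.68 and 283 ± 14.8 with GMT, GHMT and AGHMT. The summed level of 15 macrophage markers was 394.2 to 573.1 CPM in mock at day 7 and 43.3 to 68.4 CPM with the cocktails, and 13, 14 and 14 of the 14 tested markers fell. Endothelial markers (10 genes) summed to 22.6 to 25 CPM in mock at day 7 and to 6.63 to 14.3 CPM with the cocktails, with Tie1 at 0 in the GMT libraries. At day 7 the 7 epithelial markers summed to 21 to 24.4 CPM in mock, 95.4 to 98.2 CPM with GMT, 46.5 to 52.4 CPM with GHMT and 15 to 17.3 CPM with AGHMT, the 11 neural and glial markers to 163 to 167 CPM in mock and 293 to 380 CPM with the cocktails, and the 9 cartilage and bone markers to 105 to 112 CPM in mock and 55 to 78.7 CPM with the cocktails. The part of these cell types in the Hox results was not tested.

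Among the 4 clusters, d held the most falls of at least 2-fold with each cocktail at day 7. Its summed level was 82.9 ± 1.11 CPM in mock at day 2 and 34.7 ± 1.96, 40.2 ± 0.98 and 34.2 ± 2.05 CPM with GMT, GHMT and AGHMT. At day 7 it was 92.4 ± 2.89 CPM in mock and 29.5 ± 1.21, 29.6 ± 1.23 and 28.4 ± 0.662 CPM with the cocktails. Of its 9 genes, 7 fell at day 7 with each cocktail, and 6, 7 and 7 of these fell at least 2-fold. Over all genes tested, 36%, 35.6% and 38.1% fell, and 14.7%, 14.1% and 15.4% fell at least 2-fold. The median log2 fold changes of the cluster were -1.95, -1.68 and -1.77, beside medians between -0.55 and 0.20 for clusters a to c in these comparisons. At day 2, 6 of 9 fell with GMT and 7 of 9 with GHMT and with AGHMT. Over all genes tested, 33.1%, 33.3% and 37.4% fell and 33.9%, 34.9% and 38% rose at day 2. By edgeR's quasi-likelihood test 0 of the 9 cluster d genes rose at day 2, beside 0, 1 and 0 at an unadjusted p under 0.05 and 0 with DESeq2.

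Hoxd13 (chr2:74668310-74671599), at the 5′ end of the cluster, builds the digits and the external genitalia. Its level was 43.1, 45.2 and 44.2 CPM in the mock libraries at day 2 and 35.9, 39.2 and 34 CPM at day 7. With GMT it was at 12.2, 10.01 and 10.2 CPM at day 2 and 5.1, 6.11 and 5.35 at day 7, with GHMT at 14.4, 13.9 and 13.9 and 6.39, 6.33 and 5.77, and with AGHMT at 11.4, 11.2 and 12.1 and 6.07, 5.91 and 5.44. Every cocktail library was below every mock library of its day. The log2 fold changes at day 7 were -2.72 ± 0.077 (SE), -2.56 ± 0.076 and -2.65 ± 0.077, with adjusted p of 1.91e-20, 5.63e-20 and 3.38e-20. They were larger than at day 2, when the values were -2.03 ± 0.070, -1.65 ± 0.069 and -1.93 ± 0.070, and the difference between days passed the test in each cocktail (adjusted p of 5.66e-06, 7.32e-08 and 3.35e-06).

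Hoxd12 (chr2:74675013-74677705), its neighbour and also a gene of the distal limb, had the largest falls among genes of at least 1 CPM. It stood at 4.87, 5.17 and 5.0 CPM in mock at day 2 and at 2.63, 2.26 and 2.76 CPM in mock at day 7. At day 2 it was at 0.853, 0.479 and 0.564 CPM with GMT, 0.76, 0.596 and 0.666 with GHMT and 0.695, 0.657 and 0.61 with AGHMT. At day 7 the values were 0.237, 0.257 and 0.188 CPM with GMT, 0.056, 0.109 and 0.0328 with GHMT and 0.0315, 0 and 0.0892 with AGHMT. Mock and cocktail libraries did not overlap on either day, and the GHMT and AGHMT libraries at day 7 rest on 7 and 4 counts in all. The log2 fold changes at day 7 were -3.47 ± 0.23 with GMT, -5.15 ± 0.29 with GHMT and -5.81 ± 0.32 with AGHMT (adjusted p of 5.58e-13, 3.08e-14 and 2.16e-14), and the AGHMT value became -7.01 without its replicate 3, the library with 3 of the 4 counts. At day 2 they were -2.97 ± 0.16, -2.89 ± 0.17 and -2.93 ± 0.17. GHMT lay below GMT at day 7 (log2 difference -1.68 ± 0.49, adjusted p = 0.00851).

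Hoxd11 (chr2:74679557-74687016), which shapes the forearm with Hoxa11, fell less. Its mean was 4.55 ± 0.164 CPM in mock at day 7, 3.08 ± 0.394 with GMT, 1.67 ± 0.285 with GHMT and 1.8 ± 0.273 with AGHMT, a log2 fold change of -0.56 ± 0.14, -1.44 ± 0.16 and -1.34 ± 0.16. Hoxd10 (chr2:74691924-74695105), a gene of hindlimb motor neurons, behaved differently. It was at 3.65 ± 0.285 CPM in mock at day 7 and rose with GMT to 5.3 ± 0.125 (log2 fold change 0.54 ± 0.10, adjusted p = 2.09e-05), while GHMT (-0.03 ± 0.10) and AGHMT (-0.12 ± 0.10) did not pass the test. At day 2 it had fallen with GHMT (-0.29 ± 0.089) and with AGHMT (-0.83 ± 0.093). The GHMT call was lost without replicate 3 of mock (adjusted p = 0.0549) or replicate 2 of GHMT (0.0524). Hoxd9 (chr2:74697727-74700208) was the gene of the cluster that passed the test against mock in no cocktail on either day, with log2 fold changes from -0.04 to 0.23. Its mean was 5.31 ± 0.344 CPM in mock at day 7 and 5.28 ± 0.277, 6.09 ± 0.506 and 6.05 ± 0.354 with GMT, GHMT and AGHMT.

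On the 3′ side, Hoxd8 (chr2:74704615-74707933), a trunk gene, rose in mock between the days and lay below mock with the cocktails. It stood at 13.5, 13.4 and 13.3 CPM in mock at day 2 and 35.6, 36.2 and 35.9 CPM at day 7. At day 2 it was at 7.73, 7.56 and 7.66 CPM with GMT, 9.48, 11.3 and 10.4 with GHMT and 9.04, 9.27 and 11.5 with AGHMT. At day 7 it was at 9.58, 9.28 and 9.03, 11.6, 11.6 and 10.3 and 10.5, 10.6 and 10.5 CPM. The cocktail libraries lay below mock on both days without overlap, and the 3 mock libraries at day 7 lay above the 3 at day 2. The log2 fold changes were -0.81 ± 0.076, -0.36 ± 0.075 and -0.42 ± 0.074 at day 2 and -1.95 ± 0.070, -1.68 ± 0.068 and -1.77 ± 0.070 at day 7 (day 7 adjusted p of 2.57e-18, 3.91e-17 and 1.57e-17).

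Hoxd3 (chr2:74711927-74748442), which forms the first cervical vertebrae, was at 0.466, 0.487 and 0.898 CPM in mock at day 2 and 1.42, 1.42 and 1.46 CPM at day 7. At day 2 it was at 0.207, 0.197 and 0.356 CPM with GMT, 0.463, 0.232 and 0.20 with GHMT and 0.203, 0.0986 and 0.0554 with AGHMT. At day 7 it was at 0.089, 0.20 and 0.215, 0.112, 0.0816 and 0.262 and 0.0629, 0.196 and 0.178 CPM. No cocktail library reached a mock library of its day. The log2 fold changes at day 7 were -3.05 ± 0.35, -3.26 ± 0.36 and -3.26 ± 0.37 (adjusted p of 2.22e-08, 1.49e-08 and 1.74e-08). At day 2 they were -1.28 ± 0.37, -1.03 ± 0.38 and -2.33 ± 0.45, and the last became -2.96 without replicate 1 of AGHMT. The day 2 call with GMT was lost without replicate 3 of mock (adjusted p = 0.0515), and that with GHMT without replicate 3 of mock (0.153), replicate 2 of GHMT (0.0747) or replicate 3 of GHMT (0.0892). Hoxd4, a retinoic acid-responsive hindbrain gene, was at 1.9 ± 0.272 CPM in mock at day 7 and 0.595 ± 0.032, 0.659 ± 0.255 and 0.657 ± 0.0527 with the cocktails, a log2 fold change of -1.67 ± 0.22, -1.5 ± 0.21 and -1.53 ± 0.22. In the annotation 62.4% of the exon bases of Hoxd3 and 52.3% of those of Hoxd4 are shared with each other or with the predicted gene Gm28230 on the same strand, so their separate values are uncertain.

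Hoxd1 (chr2:74762980-74765142), at the 3′ end, is known from sensory neurons. Over the 3 libraries of a group it had 29 counts in mock at day 2 and 77 in mock at day 7. In the cocktail groups it had 0 to 2 counts, so that it was near the limit of detection in every one of them. At day 7 its mock level exceeded that with GMT 82.8-fold (95% counting interval 14.4 to 3312) and that with GHMT 80.5-fold (14 to 3218), each against 1 count. With AGHMT at day 7, at 0 counts, it was at least 8.29-fold lower, against a floor of 3 counts per library.

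**Figure D3:**
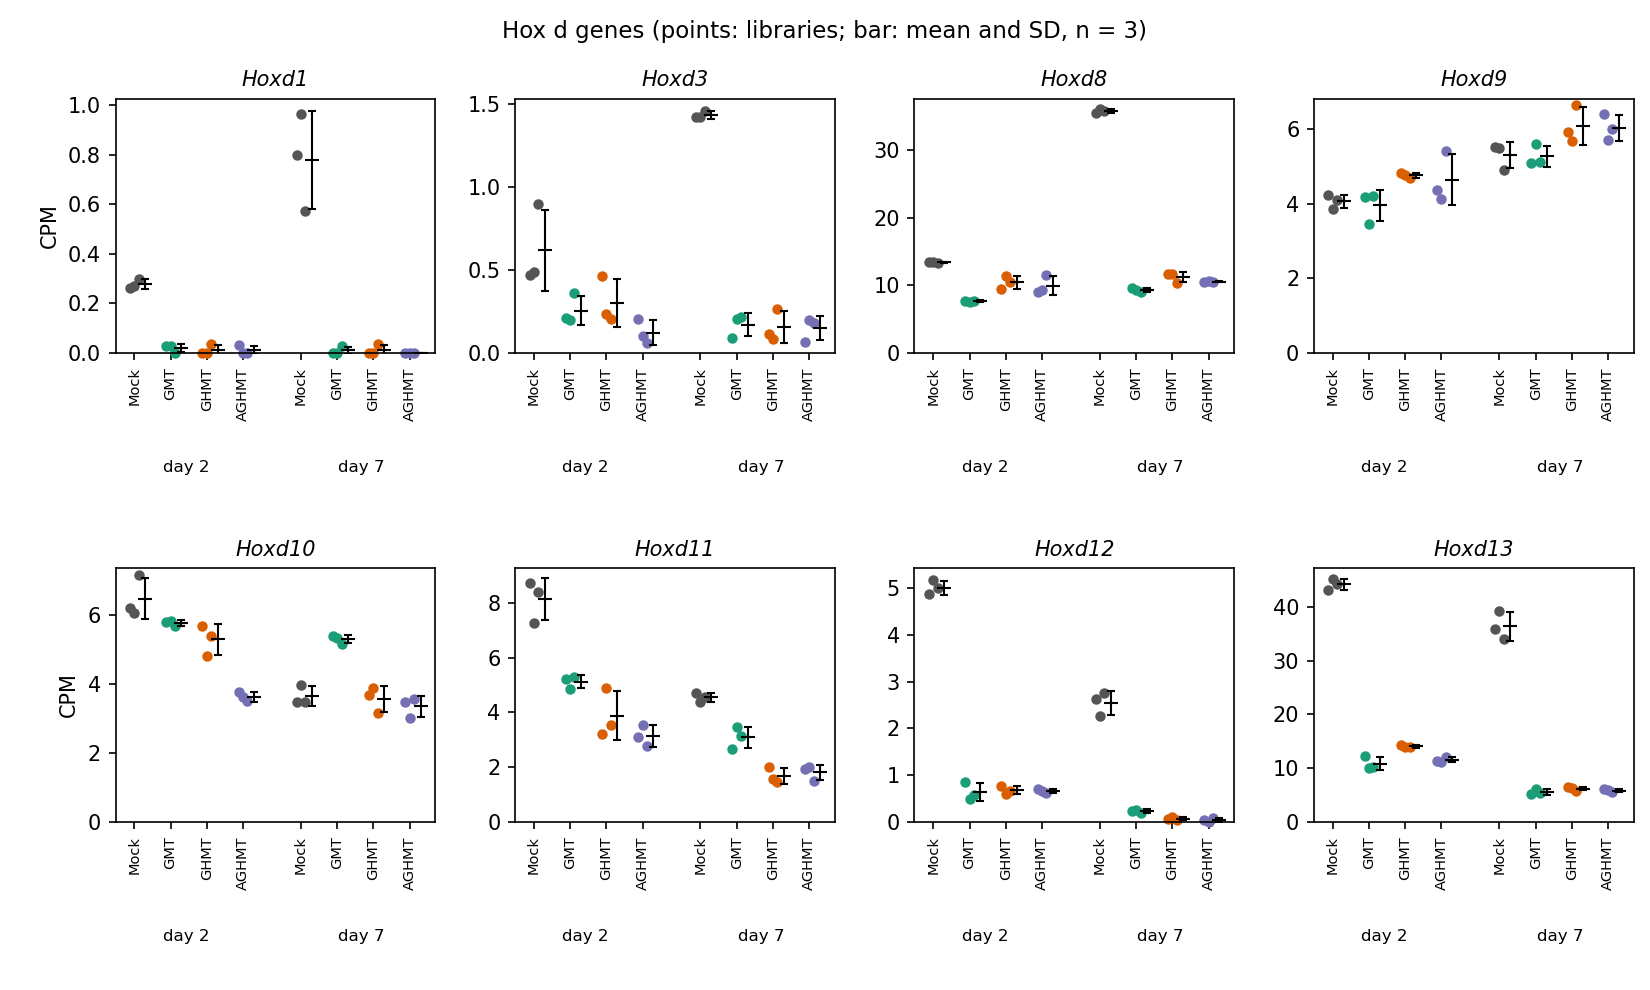
Levels of Hoxd1, Hoxd3, Hoxd8, Hoxd9, Hoxd10, Hoxd11, Hoxd12 and Hoxd13 in CPM in every library, by cocktail and day; points are libraries and bars are mean ± SD (n = 3). Hoxd13, Hoxd12, Hoxd8, Hoxd3 and Hoxd1 are lower with every cocktail at day 7, while Hoxd9 is not.

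The stretches just before the start sites of 4 cluster d genes are shown because 3 of them fell by at least 2-fold with each cocktail at day 7 and Hoxd9, which lies between them, did not. They were taken from RefSeq on the build GRCm38.p6, plus strand, and were chosen after the values were seen. Each runs 5′ to 3′ and covers the 250 bases before the annotated start, or for Hoxd9 the first 214 of them. Capitals mark AGGTGT, the core of T-box sites, where it was found. Hoxd10, which lies between Hoxd12 and Hoxd9 and was not called lower at day 7 either, is not shown, and its stretch held no AGGTGT.
Hoxd13, chr2:74667975-74668224: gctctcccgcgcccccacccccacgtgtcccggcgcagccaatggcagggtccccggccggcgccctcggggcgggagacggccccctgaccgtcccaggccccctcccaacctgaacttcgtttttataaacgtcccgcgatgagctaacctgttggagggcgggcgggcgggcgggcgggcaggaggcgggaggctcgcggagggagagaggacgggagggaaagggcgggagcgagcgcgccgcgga
Hoxd12, chr2:74674763-74675012: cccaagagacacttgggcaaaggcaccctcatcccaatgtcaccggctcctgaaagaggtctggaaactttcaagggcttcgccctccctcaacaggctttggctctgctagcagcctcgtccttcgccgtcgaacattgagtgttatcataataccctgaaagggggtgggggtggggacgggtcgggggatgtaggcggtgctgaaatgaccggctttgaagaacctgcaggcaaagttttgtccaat
Hoxd9, chr2:74697513-74697726: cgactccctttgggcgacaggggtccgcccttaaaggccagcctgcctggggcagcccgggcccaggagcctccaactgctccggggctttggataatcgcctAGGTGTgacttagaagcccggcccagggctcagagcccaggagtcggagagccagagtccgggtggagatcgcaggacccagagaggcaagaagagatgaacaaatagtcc
Hoxd8, chr2:74704365-74704614: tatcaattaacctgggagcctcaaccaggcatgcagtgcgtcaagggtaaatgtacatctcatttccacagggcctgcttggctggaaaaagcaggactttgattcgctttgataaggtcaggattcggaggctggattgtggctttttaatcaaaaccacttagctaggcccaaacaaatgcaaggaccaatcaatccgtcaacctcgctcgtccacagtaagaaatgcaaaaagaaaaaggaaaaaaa

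RefSeq promoter windows of 300 bases, from 250 before to 50 after a start, matched 22 of the 39 Hox genes with 24 windows. On either strand, AGGTGT was in 12.5% of the Hox windows (Hoxa10, Hoxb4 and Hoxd9) and in 13.7% of all 32851 windows. CATCTG, an E-box bound by HAND factors, was in 12.5% of the Hox windows (Hoxa6, Hoxb1 and Hoxb4) and in 17.2% of all. AGATAA, bound by zinc-finger factors such as Gata4, was in 0 of the 24 Hox windows and 11.2% of all, and CTAAAAATA, a MEF2 site, was in 0 and in 0.518% of all. The 0 for AGATAA covers that spelling only. TGATAA, which differs from it in the first base, was not counted. It stands in the printed stretch of Hoxd8 and, on the other strand, in that of Hoxd12. The median GC content of the Hox windows was 57.7%, and that of all windows was 52.7%. These letters are a description of short windows and say nothing of binding in these cells.

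In cluster a the 5′ side and the 3′ side differed. Hoxa9, Hoxa10, Hoxa11 and Hoxa13 fell with each cocktail on both days, with median log2 fold changes of -1.61 with GMT, -1.15 with GHMT and -0.64 with AGHMT at day 7. Of the 7 genes on the 3′ side, 2 rose with each cocktail at day 7, and 1, 1 and 0 fell. With AGHMT, 0 also fell at an unadjusted p under 0.05 and with DESeq2. Over all genes tested, 37.1%, 36.3% and 38.6% rose and 36%, 35.6% and 38.1% fell at day 7. The sides differed less at day 2, when 4, 4 and 2 of the 7 fell and 1 rose with each cocktail. Beside these, 33.1%, 33.3% and 37.4% of all genes fell and 33.9%, 34.9% and 38% rose. The summed level of the 4 genes on the 5′ side was 73.1 ± 5.97 CPM in mock at day 7 and 26.9 ± 0.13, 36.9 ± 1.74 and 49.7 ± 1.82 CPM with GMT, GHMT and AGHMT, whereas that of the 7 others was 20.7 ± 0.694 CPM in mock and 20.4 ± 0.755, 21.2 ± 1.76 and 21.9 ± 0.535 CPM.

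Hoxa10 (chr6:52231197-52240854), which patterns the thigh and the uterus, was the most abundant gene of the cluster per kb. It stood at 37.6, 38.6 and 39.8 CPM in mock at day 2, 16.2, 15 and 14.8 with GMT, 23.5, 24.9 and 23.2 with GHMT and 25.1, 25.2 and 28.2 with AGHMT. At day 7 the levels were 37.6, 39.9 and 34.9 CPM in mock, 14.3, 12.7 and 12.7 with GMT, 19.6, 16.8 and 19 with GHMT and 22.7, 23.7 and 26 with AGHMT. On both days the groups lay in the order GMT, GHMT, AGHMT, mock from low to high without overlap between libraries, although the step from GHMT to AGHMT at day 2 did not pass the test (log2 difference 0.13 ± 0.069, adjusted p = 0.114, and 0.411 without replicate 3 of AGHMT). The log2 fold changes against mock were -1.33 ± 0.069, -0.69 ± 0.068 and -0.56 ± 0.066 at day 2 and -1.5 ± 0.071, -1.02 ± 0.069 and -0.63 ± 0.067 at day 7 (day 7 adjusted p of 7.47e-16, 1.11e-12 and 5.86e-09). At day 7 GHMT was above GMT (log2 difference 0.48 ± 0.074, adjusted p = 8.43e-06) and AGHMT above GHMT (0.39 ± 0.071, adjusted p = 5.70e-05).

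Hoxa11 (chr6:52242106-52245810), a gene of the forearm and lower leg, showed the same order at day 7. It was at 16.1, 16.4 and 16.1 CPM in mock at day 2 and at 5.48, 5.02 and 5.2, 7.83, 8.35 and 7.06 and 8.23, 7.99 and 10.6 CPM with GMT, GHMT and AGHMT. At day 7 it was at 12, 12.5 and 9.86 CPM in mock and at 3.41, 3.25 and 3.73, 5.07, 4.54 and 4.49 and 7.21, 6.76 and 7.17 CPM. All cocktail libraries were below mock, and at day 7 the 3 cocktails did not overlap one another. Measured against mock, log2 fold changes were -1.63 ± 0.10, -1.06 ± 0.094 and -0.85 ± 0.091 at day 2 and -1.72 ± 0.11, -1.28 ± 0.10 and -0.70 ± 0.10 at day 7. Its antisense transcript Hoxa11os covers 35% of its exon bases on the other strand, and the strand setting of the counting is not given in the sources used here, so reads of the pair may be mixed. Hoxa13, the digit gene of this cluster, was at 8.66 ± 0.718 CPM in mock at day 7 and 2.42 ± 0.191, 3.51 ± 0.36 and 5.54 ± 0.236 with the cocktails. Hoxa9, a gene of blood progenitors and of the upper arm, was at 15.5 ± 1.87 CPM and at 7.77 ± 0.803, 10.2 ± 0.686 and 13 ± 0.324. Its fall with AGHMT at day 7 (-0.26 ± 0.084) was lost without replicate 2 of mock (adjusted p = 0.0841).

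**Figure D4:**
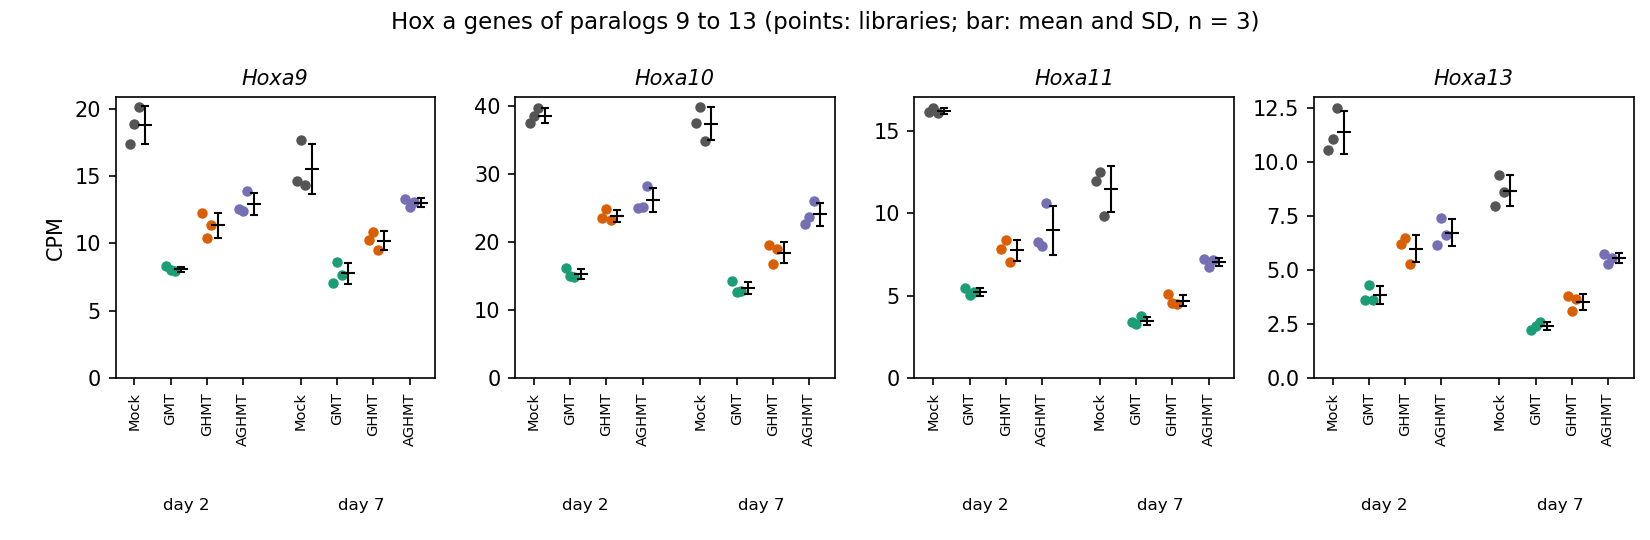
Levels of Hoxa9, Hoxa10, Hoxa11 and Hoxa13 in CPM in every library, by cocktail and day; points are libraries and bars are mean ± SD (n = 3). At day 7 each gene is lowest with GMT, next with GHMT and AGHMT, and highest in mock.

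Hoxa4 (chr6:52189671-52191753), on the 3′ side, a gene of the neck vertebrae, was at 0.729, 0.758 and 0.838 CPM in mock at day 2 and 0.473, 0.633 and 0.412 CPM at day 7. Day 2 values were 1.06, 0.987 and 0.712 CPM with GMT, 0.925, 0.828 and 0.733 with GHMT and 1.19, 1.61 and 2.08 with AGHMT, and at day 7 they were 0.831, 0.885 and 1.16, 0.756, 0.897 and 0.82 and 0.975, 0.751 and 1.37 CPM. At day 7 every cocktail library was above every mock library, and at day 2 only the AGHMT libraries were. Relative to mock, the log2 fold changes at day 7 were 0.92 ± 0.27, 0.70 ± 0.28 and 1.03 ± 0.27 (adjusted p of 0.0035, 0.0269 and 0.00125), and that with AGHMT at day 2 was 1.07 ± 0.22. The GHMT call at day 7 was lost without replicate 2 of GHMT (adjusted p = 0.0822), replicate 1 of mock (0.0758) or replicate 3 of mock (0.102). The gene Gm29430 covers 16% of the exon bases of Hoxa4 on the other strand, so reads of the pair may be mixed. Of the other 3′ genes, Hoxa3 and Hoxa5, which had fallen with GMT and GHMT at day 2, did not pass the test at day 7, with log2 fold changes of -0.09 ± 0.15 and -0.23 ± 0.15 for Hoxa3 and 0.21 ± 0.11 and 0.03 ± 0.11 for Hoxa5. Hoxa3 had also fallen with AGHMT at day 2 (-0.94) and did not pass at day 7 (-0.15). Mean Hoxa3 went from 4.53 to 2.9 CPM in mock between the days. With GMT, GHMT and AGHMT it went from 2.288, 2.575 and 2.365 to 2.717, 2.464 and 2.616 CPM. At day 7 Hoxa7 fell with GMT (-0.53 ± 0.092), and Hoxa2 with GHMT (-0.52 ± 0.22). The Hoxa2 call was lost without replicate 1 (adjusted p = 0.0935) or 2 (0.11) of GHMT, replicate 1 (0.137) or 2 (0.0705) of mock, or with DESeq2 (0.109).

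In cluster b, 3 of 9 tested genes rose and 3 fell at day 7 with GMT and with GHMT, and 3 rose and 4 fell with AGHMT, which is near the shares of all genes that rose (37.1%, 36.3% and 38.6%) and fell (36%, 35.6% and 38.1%) in these comparisons. The summed level went from 112 ± 2.66 CPM in mock to 91 ± 2.2, 91.5 ± 5.14 and 92.7 ± 4.06 CPM with the cocktails. Hoxb9 (chr11:96271457-96276595) carried most of that difference. It was at 57.3, 55.6 and 53.9 CPM in mock at day 2 and 64.3, 60.8 and 63.2 CPM at day 7. The day 2 levels were 30.2, 32.4 and 33.4 CPM with GMT, 29.1, 29.9 and 29.4 with GHMT and 27.4, 26.4 and 29.8 with AGHMT, and at day 7 they were 47, 47.1 and 43.6, 42.1, 44.6 and 46.5 and 48.8, 50.6 and 50.8 CPM. All cocktail libraries were below mock, by more at day 2 than at day 7. Its log2 fold changes were -0.80 ± 0.051, -0.92 ± 0.052 and -1.0 ± 0.051 at day 2 and -0.45 ± 0.049, -0.50 ± 0.050 and -0.33 ± 0.049 at day 7, and the difference between days had adjusted p of 0.000221, 2.87e-05 and 1.97e-08.

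Hoxb8 (chr11:96281905-96285315), known for holding myeloid progenitors in an undifferentiated state, had the largest fall of the cluster at day 7. It stood at 10.7, 11.4 and 9.66 CPM in mock at day 2 and at 12.2, 12.4 and 12.9 CPM at day 7. After 2 days it was at 4.06, 3.33 and 2.94 CPM with GMT, 4.59, 3.61 and 4.73 with GHMT and 6.72, 6.57 and 7.32 with AGHMT, and at day 7 at 5.01, 4.91 and 5.51, 4.54, 5.14 and 5.12 and 4.78, 5.03 and 5.35 CPM. Mock lay above every cocktail library, and at day 2 AGHMT lay above the other cocktails. These differences, on the log2 scale, were -1.62 ± 0.10, -1.3 ± 0.10 and -0.63 ± 0.093 at day 2 and -1.28 ± 0.10, -1.34 ± 0.10 and -1.3 ± 0.10 at day 7 (day 7 adjusted p of 8.09e-12, 4.10e-12 and 6.90e-12).

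Hoxb4 (chr11:96318267-96321638), which expands blood stem cells when overexpressed, was the gene that rose with every cocktail on both days. It was at 6.79, 8.39 and 6.52 CPM in mock at day 2 and 9.72, 8.84 and 8.75 CPM at day 7. On day 2 it stood at 9.59, 10.2 and 9.56 CPM with GMT, 12.7, 12.9 and 12.3 with GHMT and 18.8, 19.9 and 20.9 with AGHMT, and the 4 groups rose in that order with no overlap. At day 7 it was at 11.7, 11.9 and 10.6, 12.9, 13.5 and 12.4 and 11.2, 12.1 and 12.8 CPM, again above mock in every library. Fold changes on the log2 scale were 0.43 ± 0.083, 0.80 ± 0.082 and 1.45 ± 0.078 at day 2 (adjusted p of 6.82e-05, 4.77e-09 and 1.14e-14) and 0.32 ± 0.080, 0.51 ± 0.079 and 0.40 ± 0.081 at day 7. The AGHMT effect was smaller at day 7 than at day 2 (log2 difference -1.05 ± 0.11, adjusted p = 2.14e-08). Its promoter stretch, the 250 bases before the RefSeq start on the plus strand of GRCm38.p6, is shown because it is the Hox window that held both CATCTG and AGGTGT; the capitals mark CATCTG and ACACCT, the reverse complement of AGGTGT.
Hoxb4, chr11:96318017-96318266: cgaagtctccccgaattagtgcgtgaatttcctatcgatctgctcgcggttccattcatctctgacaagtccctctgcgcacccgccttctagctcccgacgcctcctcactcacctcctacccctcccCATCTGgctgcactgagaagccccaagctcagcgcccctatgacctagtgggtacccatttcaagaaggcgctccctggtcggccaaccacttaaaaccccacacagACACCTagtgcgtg

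Hoxb7 (chr11:96286623-96290162), a trunk gene and the next most abundant of the cluster per kb, changed little. It was at 7.35, 6.15 and 6.43 CPM in mock at day 2 and at 7.86, 7.58 and 8.49, 8.26, 7.09 and 8.29 and 5.82, 6.25 and 8.09 CPM with GMT, GHMT and AGHMT. At day 7 it was at 6.59, 6.73 and 8.78 CPM in mock and at 9.76, 9.22 and 8.92, 7.99, 9.68 and 8.66 and 6.17, 6.76 and 7.46 CPM. GHMT and AGHMT overlapped mock on both days. The rise with GMT at day 7 (0.34 ± 0.12, adjusted p = 0.0115) was lost without replicate 1 of mock (adjusted p = 0.0729) or replicate 2 of mock (0.0615), and the 5 other values against mock, from -0.11 to 0.26, did not pass the test. Of the remaining genes, Hoxb2 rose at day 7 with GHMT (0.64 ± 0.21) and AGHMT (0.65 ± 0.22), calls that were lost without replicate 1 of mock (adjusted p of 0.0857 and 0.0836), without replicate 2 of GHMT (0.0539) or without replicate 2 of AGHMT (0.0728). Hoxb3 fell with each cocktail at day 7 (-0.52 ± 0.17, -0.47 ± 0.17 and -0.52 ± 0.17). Its GMT call was lost without replicate 2 of GMT (0.0638), and its GHMT call without replicate 1 of GHMT (0.0834) or of mock (0.0508). The antisense gene Hoxb3os covers 52.9% of the exon bases of Hoxb3 and 27.3% of those of Hoxb2, so reads of these genes may be mixed.

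Cluster c divided the other way from cluster a at day 7. Its 4 genes Hoxc4, Hoxc5, Hoxc6 and Hoxc8 fell with each cocktail, while Hoxc11 and Hoxc13 rose with each, Hoxc12 rose with GMT and GHMT, Hoxc10 rose with AGHMT, and Hoxc9 fell with each. Over all genes tested, 36%, 35.6% and 38.1% fell and 37.1%, 36.3% and 38.6% rose at day 7. The summed level of Hoxc4 to Hoxc8 was 104 ± 5.23 CPM in mock and 59.2 ± 1.6, 63.7 ± 3.18 and 64.9 ± 1.44 CPM with GMT, GHMT and AGHMT. That of Hoxc9 to Hoxc13 was 28.4 ± 0.221 CPM in mock and 30.3 ± 0.287, 30.7 ± 1.88 and 30.03 ± 1.15 CPM.

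Hoxc6 (chr15:102998257-103011881) and Hoxc8 (chr15:102990607-102994111), genes of the thoracic spine, were the most abundant of the cluster per kb. Hoxc6 was at 28.7, 30.7 and 29 CPM in mock at day 2 and 43, 45.1 and 46.2 CPM at day 7. Day 2 values were 22.5, 23.9 and 24.5 CPM with GMT, 29.4, 28.8 and 28.9 with GHMT and 29, 31 and 34 with AGHMT, and at day 7 they were 30.9, 29.8 and 31, 30.5, 34.6 and 31.8 and 29.8, 31.7 and 32.5 CPM. At day 2 GHMT and AGHMT overlapped mock, whereas at day 7 all 9 cocktail libraries lay below mock. Measured against mock, log2 fold changes were -0.32 ± 0.058, -0.02 ± 0.058 and 0.09 ± 0.057 at day 2, of which that with GMT passed the test, and -0.55 ± 0.056, -0.47 ± 0.056 and -0.52 ± 0.056 at day 7, which all passed. Hoxc8 was at 20.2, 21.7 and 21.4 CPM in mock at day 2 and 40.04, 41.4 and 44.3 CPM at day 7. The day 2 levels were 15.1, 15.5 and 15.4 CPM with GMT, 17.4, 17.7 and 18.7 with GHMT and 14.7, 15.6 and 15.6 with AGHMT, and at day 7 they were 18.9, 17.7 and 16.9, 20.2, 21.4 and 19.6 and 21.6, 22.2 and 21.6 CPM. It was lower than mock with every cocktail on both days without overlap, by log2 fold changes of -0.46 ± 0.055, -0.23 ± 0.055 and -0.47 ± 0.055 at day 2 and -1.23 ± 0.052, -1.04 ± 0.052 and -0.94 ± 0.052 at day 7. Like Hoxd8, both had risen in mock between the days, by 0.60 ± 0.056 for Hoxc6 and 0.99 ± 0.051 for Hoxc8 on the log2 scale.

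Hoxc11 (chr15:102954427-102957708), a hindlimb gene, was at 4.96, 4.98 and 5.5 CPM in mock at day 2 and at 1.86, 1.78 and 1.46 CPM at day 7. After 2 days it was at 3.62, 4.06 and 4.1 CPM with GMT, 4.99, 5.13 and 4.9 with GHMT and 3.1, 3.19 and 3.74 with AGHMT, and at day 7 at 3.68, 3.4 and 3.49, 2.49, 3.45 and 2.79 and 2.89, 3.33 and 3.72 CPM. The mock libraries were thus high at day 2 and low at day 7, and the cocktail libraries were below or among them at day 2 and above them at day 7. On the log2 scale the changes were -0.39 ± 0.11, -0.04 ± 0.11 and -0.62 ± 0.11 at day 2 and 1.05 ± 0.13, 0.78 ± 0.14 and 0.96 ± 0.14 at day 7 (day 7 adjusted p of 1.29e-07, 1.91e-05 and 6.65e-07).

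Hoxc12 (chr15:102936757-102938609), its 5′ neighbour, was at 2.51, 3.14 and 2.51 CPM in mock at day 2 and at 0.916, 0.814 and 0.697 CPM at day 7. On day 2 it stood at 2.63, 2.76 and 2.85 CPM with GMT, 2.94, 2.29 and 2.33 with GHMT and 1.71, 1.84 and 1.39 with AGHMT, and at day 7 at 1.84, 2.11 and 1.5, 1.6, 1.71 and 1.64 and 0.975, 1.01 and 1.13 CPM. AGHMT was the lowest group at day 2, and at day 7 all cocktail libraries were above mock with AGHMT the nearest to it. Relative to mock, the log2 fold changes at day 7 were 1.16 ± 0.17, 1.02 ± 0.18 and 0.36 ± 0.20, and the last did not pass the test (adjusted p = 0.118). At day 2 they were 0.01 ± 0.13, -0.11 ± 0.13 and -0.74 ± 0.14, of which the last passed (adjusted p = 5.20e-05).

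Hoxc13 (chr15:102921103-102928814), which drives hair and nail keratin genes, had the largest rise of any Hox gene with GMT and GHMT at day 7. It was at 5.13, 4.76 and 4.34 CPM in mock at day 2 and at 2.51, 2.93 and 3.46 CPM at day 7. Day 2 values were 8.19, 7.92 and 6.98 CPM with GMT, 7.83, 6.82 and 6.66 with GHMT and 4.84, 4.5 and 4.68 with AGHMT, and at day 7 they were 8.16, 8.62 and 8.33, 8.29, 8.84 and 8.04 and 5.25, 6.27 and 5.86 CPM. GMT and GHMT lay above mock on both days, and AGHMT lay below the other cocktails on both days. Its log2 fold changes were 0.70 ± 0.095, 0.58 ± 0.10 and -0.02 ± 0.10 at day 2 and 1.5 ± 0.10, 1.5 ± 0.10 and 0.97 ± 0.11 at day 7 (day 7 adjusted p of 1.51e-12, 1.56e-12 and 1.56e-08). At day 7 the summed epithelial markers were above mock with GMT (95.4 to 98.2 CPM) and GHMT (46.5 to 52.4 CPM) and below mock with AGHMT (15 to 17.3 CPM), and their part in the result was not tested.

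Mock cells themselves changed between day 2 and day 7. Of the 38 tested genes 12 rose and 15 fell, beside 29.7% and 25.8% of all genes, and 4 rose and 3 fell at least 2-fold, beside 8.41% and 5.43%. The 4 were Hoxd1, Hoxd3, Hoxd4 and Hoxd8, the 4 genes of the 3′ side of cluster d, with log2 changes of 1.48 ± 0.31, 1.22 ± 0.27, 1.42 ± 0.21 and 1.42 ± 0.067. Of the 5 genes on the 5′ side of that cluster, Hoxd9 rose (0.39 ± 0.10) and the other 4 fell, from -0.28 for Hoxd13 to -0.98 for Hoxd12. The 3 that fell at least 2-fold were Hoxb13, Hoxc11 and Hoxc12. Hoxb13 (chr11:96194316-96197447), a gene of the tail bud and prostate, went from 3.0 ± 0.256 CPM to 0.65 ± 0.0823 CPM (log2 change -2.2 ± 0.18, adjusted p = 9.89e-11), Hoxc11 changed by -1.59 ± 0.13 and Hoxc12 by -1.75 ± 0.16. Over the same interval the summed macrophage markers went from 55.8 to 56.8 CPM up to 394.2 to 573.1 CPM in mock, and 9 of 10 fibroblast markers rose; their part in the change was not tested. The day of harvest and any handling that came with it cannot be told apart.

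Hoxb13 was on opposite sides of mock on the 2 days. It was at 2.83, 2.87 and 3.29 CPM in mock at day 2 and 0.561, 0.724 and 0.666 CPM at day 7, while with GMT it was at 1.24, 1.3 and 1.48 and 0.86, 1.37 and 1.37 CPM, with GHMT at 1.55, 1.46 and 1.37 and 1.15, 1.33 and 1.41, and with AGHMT at 1.45, 1.58 and 2.0 and 1.45, 1.18 and 1.1. The cocktail libraries lay below mock at day 2 and above mock at day 7. These differences, on the log2 scale, were -1.16 ± 0.15, -1.03 ± 0.15 and -0.83 ± 0.14 at day 2 and 0.89 ± 0.21, 0.99 ± 0.20 and 0.93 ± 0.21 at day 7, all past the test. Over the 38 genes the effect of a cocktail differed between the days in 18 with GMT, 18 with GHMT and 21 with AGHMT. The effect was higher at day 7 in 11, 7 and 10 genes and lower in 7, 11 and 11, where over all genes it was higher in 24.3%, 23.3% and 24.8% and lower in 25.3%, 26% and 26.1%.

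**Figure D5:**
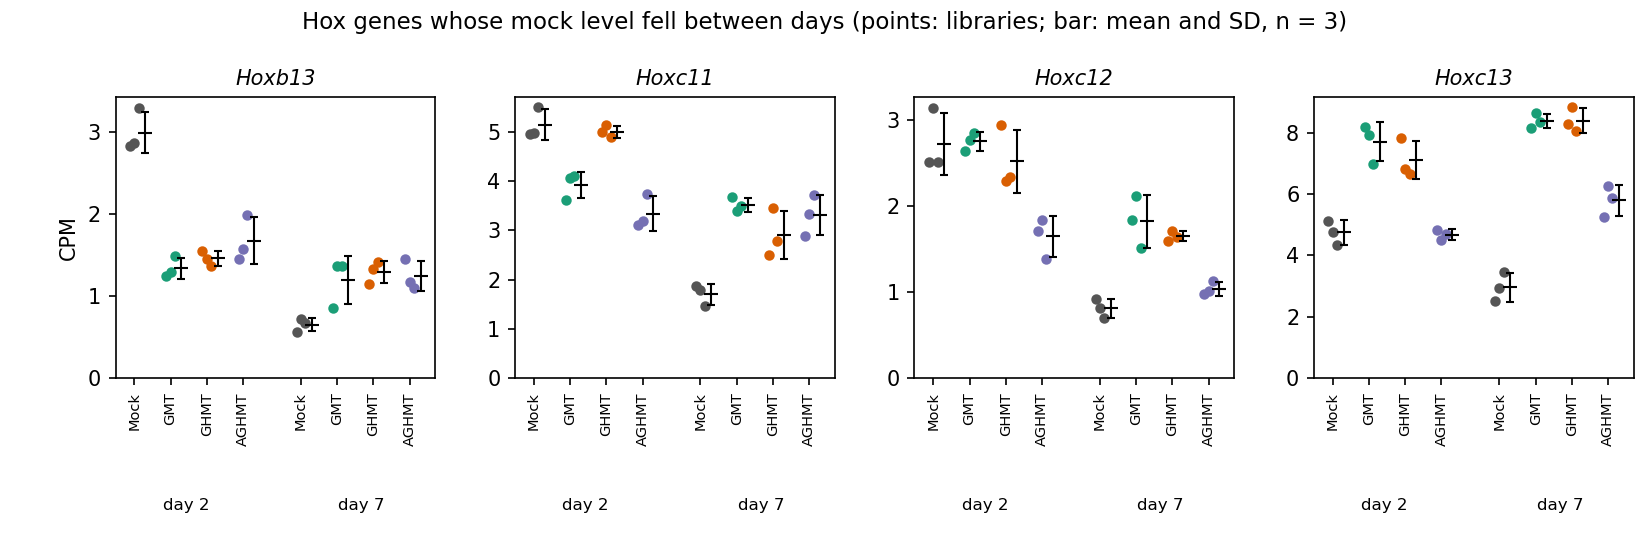
Levels of Hoxb13, Hoxc11, Hoxc12 and Hoxc13 in CPM in every library, by cocktail and day; points are libraries and bars are mean ± SD (n = 3). Mock falls from day 2 to day 7 in each gene, and the cocktail libraries lie above mock at day 7.

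Read by paralog number rather than by cluster, some groups moved together at day 7 and others split. Group 8 (Hoxb8, Hoxc8 and Hoxd8) fell in 3 of 3 genes with each cocktail, with log2 fold changes from -1.95 to -0.94. Group 9 fell in 3 of 4 with each cocktail, the exception being Hoxd9. Group 13 split evenly with each cocktail, with Hoxa13 and Hoxd13 lower and Hoxb13 and Hoxc13 higher. Group 11 had Hoxa11 and Hoxd11 lower and Hoxc11 higher with each. Group 4 had Hoxa4 and Hoxb4 higher and Hoxc4 and Hoxd4 lower with each. In group 7, 0 of the 2 genes were called with GHMT or with AGHMT. Not every group is listed here. Over all genes tested, 36%, 35.6% and 38.1% fell and 37.1%, 36.3% and 38.6% rose at day 7 with GMT, GHMT and AGHMT. In groups of so few genes, splits of this kind are near those shares.

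The addition of Hand2 was read by comparing GHMT with GMT. Gata4, Mef2c and Tbx5 were also higher with GHMT than with GMT on both days, without overlap between libraries. At day 2, for example, Gata4 was at 1479 ± 45.2 CPM with GHMT and 1143 ± 24.9 with GMT, and Tbx5 at 3409 ± 94.8 and 2983 ± 40.3. The part of these levels in the Hox differences was not tested. At day 2, 21 of 38 Hox genes were higher with GHMT and 1, Hoxd11, was lower, beside 23.1% and 21.7% of all genes, and 44.8% in either direction. The Hoxd11 call (log2 difference -0.40, adjusted p = 0.0179) was lost without replicate 1 (adjusted p = 0.132) or 3 (0.0816) of GHMT or replicate 1 (0.0511) or 3 (0.0514) of GMT. The higher ones were 5 in cluster a, 6 in b, 7 in c and 3 in d, with a largest log2 difference of 0.82 ± 0.23 for Hoxb2. The number of called genes was 16 to 19, in place of 22, when any 1 library of the pair of groups was left out. At day 7, 9 were higher and 3 lower, beside 18.7% and 18.8% of all genes. All 4 genes on the 5′ side of cluster a were higher on both days, at day 7 by 0.39 ± 0.091 for Hoxa9, 0.48 ± 0.074 for Hoxa10, 0.44 ± 0.12 for Hoxa11 and 0.53 ± 0.13 for Hoxa13. The 3 lower genes were Hoxd10 (-0.56 ± 0.10), Hoxd11 (-0.88 ± 0.16) and Hoxd12 (-1.68 ± 0.49), which adjoin each other, while Hoxd8 was higher (0.27 ± 0.076).

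The addition of Akt1 was read by comparing AGHMT with GHMT. Gata4, Mef2c and Tbx5 were also lower with AGHMT than with GHMT on both days, without overlap between libraries. At day 7 Gata4 was at 633 ± 5.18 CPM with AGHMT and 1142 ± 85.9 with GHMT, and Tbx5 at 1730 ± 25.9 and 2746 ± 62. Hand2 was lower with AGHMT at day 2 and higher at day 7. The part of these levels in the Hox differences was not tested. At day 2, 3 Hox genes were higher and 9 lower, beside 25.7% and 27% of all genes. The higher ones were Hoxa4 (0.97 ± 0.22), Hoxb8 (0.67 ± 0.11) and Hoxb4 (0.66 ± 0.074). Among the lower ones were Hoxc11 (-0.58 ± 0.11), Hoxc12 (-0.62 ± 0.15) and Hoxc13 (-0.60 ± 0.10). In cluster d, 4 of 9 were lower, which were Hoxd3, Hoxd4 (-0.71), Hoxd10 (-0.55) and Hoxd13 (-0.28). The Hoxd4 call was lost in several alternative runs, among them DESeq2 (adjusted p = 0.0758). The fall of Hoxd3 (-1.3 ± 0.54) in this comparison was lost without replicate 2 (adjusted p = 0.101) or 3 (0.171) of AGHMT, without replicate 1 of GHMT (0.28) or with DESeq2 (0.059), and was -1.94 without replicate 1 of AGHMT. At day 7, 6 were higher and 5 lower, beside 25% and 23.6% of all genes. The 4 genes on the 5′ side of cluster a were again all higher, by 0.35 ± 0.087 for Hoxa9, 0.39 ± 0.071 for Hoxa10, 0.58 ± 0.11 for Hoxa11 and 0.66 ± 0.11 for Hoxa13. No gene of cluster d passed the test at day 7 (0 of 9 by edgeR's quasi-likelihood test, 0 at an unadjusted p under 0.05 and 0 with DESeq2), beside 48.7% of all genes called in either direction, with log2 differences of -0.09 ± 0.092 for Hoxd13 and -0.09 ± 0.076 for Hoxd8. Hoxd12 (-0.66) had 7 counts with GHMT and 4 with AGHMT, and Hoxd1 had 1 and 0. At such counts a difference may have been missed. Hoxc12 (-0.66 ± 0.17) and Hoxc13 (-0.54 ± 0.093) were lower. Hoxb7 was called lower (-0.37 ± 0.12), a call lost without replicate 2 of GHMT (adjusted p = 0.0758) or replicate 1 of AGHMT (0.0682).

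Genes that work with the Hox proteins or act on their clusters were read from lists. For every list, the counts at day 7 stand beside the 36%, 35.6% and 38.1% of all genes that fell and the 37.1%, 36.3% and 38.6% that rose with GMT, GHMT and AGHMT. The TALE homeodomain factors (the Pbx, Meis and Pknox genes), which bind DNA beside Hox proteins, fell in 6, 6 and 5 of 9 at day 7 and rose in 2 with each cocktail. Meis1 was at 35.6 ± 2.61 CPM in mock at day 7 and 10.3 ± 0.442, 17.5 ± 0.653 and 13.3 ± 0.80 with GMT, GHMT and AGHMT. Pknox2, in contrast, was at 14.1 ± 1.78 CPM in mock, 13.8 ± 1.41 with GMT, 39.2 ± 1.33 with GHMT and 56.7 ± 1.65 with AGHMT, a log2 fold change of 1.48 ± 0.074 and 2.01 ± 0.074 in the last pair and of -0.03 ± 0.080 (not past the test) with GMT. Of 17 tested genes of the retinoic acid pathway, which opens the 3′ side of the clusters in the embryo, 11, 10 and 8 fell and 5, 4 and 5 rose at day 7. The retinoid carrier Crabp2 fell from 34.7 ± 0.649 CPM to 4.44 ± 0.566, 3.26 ± 0.283 and 3.27 ± 0.588. The receptor gene Rarg fell from 106 ± 8.19 CPM to 43.3 ± 1.35, 49.6 ± 1.37 and 35.5 ± 1.09, whereas Rarb, itself a target of retinoic acid, rose from 1.83 ± 0.205 CPM to 4.12 ± 0.107, 3.86 ± 0.304 and 16.2 ± 0.0625.

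Of 13 upstream regulators and ParaHox genes, 4 were expressed enough to be tested, and 4, 3 and 4 of these fell at day 7. Evx2, a homeodomain gene 8.75 kb beyond the Hoxd13 end of cluster d, was at 1.78 ± 0.309 CPM in mock at day 7 and 0.134 ± 0.0493, 0.168 ± 0.0757 and 0.269 ± 0.0516 CPM with GMT, GHMT and AGHMT (log2 fold change -3.72 ± 0.28, -3.4 ± 0.27 and -2.71 ± 0.25). Of 26 limb and trunk regulators, 19, 18 and 19 fell and 5, 4 and 5 rose at day 7, with medians of -1.14, -1.22 and -1.05 beside 0.01, 0.0023 and -0.0033 over all genes tested, of which 36%, 35.6% and 38.1% fell and 37.1%, 36.3% and 38.6% rose. Prrx1, a gene of limb bud mesenchyme, fell from 735 ± 21.2 CPM to 136 ± 6.8, 133 ± 5.61 and 140.5 ± 5.84, and Lhx9 from 21.6 ± 0.838 CPM to 3.44 ± 0.345, 2.05 ± 0.381 and 1.72 ± 0.416. Tbx18, a gene of somites and of the epicardium, rose from 14.4 ± 0.352 CPM to 41.3 ± 1.12, 49.1 ± 0.704 and 56.5 ± 1.04. Of 17 tested craniofacial regulators, which mark mesenchyme of the Hox-free head, 10, 11 and 10 fell and 4, 2 and 2 rose at day 7, beside the same shares of all genes. Twist1 fell from 101 ± 4.05 CPM to 18.5 ± 1.13, 19.4 ± 1.27 and 17.3 ± 0.421, and Sox10, a neural crest gene, rose from 3.14 ± 0.549 CPM to 6.51 ± 0.593, 6.71 ± 0.634 and 4.59 ± 0.307.

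Of 11 tested noncoding genes inside the clusters, 4, 5 and 4 fell and 3, 4 and 4 rose at day 7, near the shares of all genes (36%, 35.6% and 38.1% fell and 37.1%, 36.3% and 38.6% rose). Haglr, a noncoding gene of cluster d, went from 1.65 ± 0.195 CPM in mock to 0.0657 ± 0.013, 0.116 ± 0.019 and 0.105 ± 0.101 CPM, and Hoxa11os from 3.6 ± 0.612 CPM to 1.14 ± 0.184, 1.27 ± 0.314 and 1.44 ± 0.0764. Of 43 tested genes within 500 kb of a cluster that are not Hox genes, 20, 21 and 23 fell and 12, 14 and 14 rose at day 7, beside those same shares. Around cluster d, 3, 4 and 3 of the 4 tested neighbours fell. They include Evx2, already counted among the upstream regulators. They also include Gm28230, which shares exon bases with Hoxd3 and Hoxd4 on the same strand and so is not separate from them. Mtx2, 60.7 kb from the Hoxd1 end, was at 62.1 ± 3.62 CPM in mock and 56.5 ± 1.72, 53.3 ± 2.34 and 74.5 ± 1.33 with the cocktails, and Lnp, 88.9 kb from the Hoxd13 end, at 40.4 ± 1.8 CPM and 27.6 ± 1.06, 27.6 ± 0.83 and 32.8 ± 1.38. Around cluster a, Skap2, 143 kb away, rose from 40.5 ± 1.22 CPM to 54.9 ± 1.34, 51.1 ± 0.796 and 57.8 ± 0.708.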

How the data were processed

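The labels give 24 mouse RNA-seq libraries in 8 groups of 3. The submitters deposited whole-number counts of reads per gene for 47967 genes. The submitters' processing notes list featureCounts 1.4.6 beside the trimmer Trim Galore 0.4.1, the aligner HISAT2 2.0.1, the package DESeq2 1.6.3 and the builds GRCm38 and mm10. For the annotation release and the strand setting of the counting, the sources used here give nothing. The deposited table of log values was not used. Reads were counted without molecular identifiers, so intervals and floors cover counting error only.

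Counts were fitted with edgeR 4.0.16 (R 4.3.3, limma 3.58.1): TMM scaling, edgeR's own filter on low counts by group, 1 mean per group over all 24 libraries, quasi-likelihood F tests and Benjamini-Hochberg adjustment over the 17576 genes tested in each of 14 comparisons, with 16 residual degrees of freedom and a threshold of 0.05. The biological coefficient of variation was 5.55%. CPM values are counts over TMM-scaled library sizes, and levels between genes were compared per kb of merged exons. Positions and exon lengths come from GENCODE release M21, which matched 47601 of the 47967 identifiers; promoter sequences come from RefSeq. The test was checked on simulated data. DESeq2 1.42.0, other scalings and filters, a replicate block and the omission of each library were the alternatives. The comparison of homeodomain sequences that had been planned was not made.

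The Hox genes and the lists of cofactors, pathway genes, regulators, neighbours and markers were chosen with earlier results of these data known. A gene has its value in every library where it was among the 2 highest of its cluster per kb, or among the 4 largest rises or falls against mock on a day with at least 1 CPM. Values in every library for Hoxb13, group values for other genes, the genes drawn in the plots, the promoters printed and the minimum of 1 on the log2 scale for differences between days were chosen after values were seen. From each list up to 4 genes were named, by smallest adjusted p, except Mtx2, Lnp and Skap2, which were named from the neighbours of single clusters by the same rule. Some genes that these rules pick are not reported here, and the plots leave one of them out.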

Additional observations from a re-analysis of the deposited data

Results flagged for a closer look

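A cocktail's effect against mock differed between day 7 and day 2 by at least 1 on the log2 scale, with an adjusted p under 0.05 for the difference itself, in 18 pairs of Hox gene and cocktail (edgeR's quasi-likelihood test). Values are the log2 effect at day 7 minus that at day 2.

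The effect became more positive in 3 genes. For Hoxb13 the difference was 2.05 with GMT, 2.02 with GHMT and 1.76 with AGHMT. For Hoxc11 it was 1.44 with GMT and 1.58 with AGHMT. For Hoxc12 it was 1.15 with GMT, 1.14 with GHMT and 1.09 with AGHMT. All 3 genes fell in mock between the days, and the 2 days' mock libraries enter each difference, so the 3 cocktails are not independent of one another.

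The effect became more negative in 5 genes. Of these, Hoxd8, Hoxd3 and Hoxd4 rose in mock between the days and Hoxd12 fell, and the mock libraries of both days enter each difference. Mean Hoxd8 went from 13.4 to 35.9 CPM in mock, and from 7.65, 10.4 and 9.95 to 9.3, 11.2 and 10.5 CPM with GMT, GHMT and AGHMT. With GMT and GHMT, mean Hoxd3 went from 0.253 and 0.298 to 0.168 and 0.152 CPM, and Hoxd4 from 0.525 and 0.762 to 0.595 and 0.659 CPM. For Hoxd8 the difference was -1.14 with GMT, -1.32 with GHMT and -1.34 with AGHMT. For Hoxd3 it was -1.77 with GMT and -2.23 with GHMT, and the GMT value was lost without replicate 3 of GMT at day 2 (adjusted p = 0.0657). For Hoxd4, which shares exon bases with Hoxd3, it was -1.25 with GMT and -1.61 with GHMT. For Hoxd12 it was -2.27 with GHMT and -2.88 with AGHMT, on 7 and 4 counts at day 7, and the AGHMT value was -4.08 without replicate 3 of AGHMT at day 7. For Hoxb4 it was -1.05 with AGHMT, where the rise at day 2 was the larger one.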

How the results depend on the processing

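No count of Hox genes called moved by more than 1.5 times under any alternative run, and no called value changed sign. When each library was left out in turn, the counts against mock were 27 to 29 (GMT), 23 to 26 (GHMT) and 23 to 26 (AGHMT) at day 2, against 29, 26 and 24 with all libraries, and 28 to 29, 24 to 29 and 27 to 29 at day 7, against 29, 28 and 28. They were 16 to 19 against 22 and 10 to 12 against 12 for GHMT and GMT at days 2 and 7, 12 to 14 against 12 and 8 to 11 against 11 for AGHMT and GHMT, and 23 to 27 against 27 for mock between days. For the change in effect between days they were 14 to 18 against 18 (GMT), 15 to 19 against 18 (GHMT) and 18 to 21 against 21 (AGHMT). Of 305 called results over 532 pairs of gene and comparison, 49 lost the call in at least 1 omission. DESeq2 lost 24 and gained 0, dropping the filter lost 21 and gained 6, fitting the compared libraries alone lost 14 and gained 11 of 519, and RLE scaling lost 2 and gained 5. With the replicate number as a block, 3 calls were lost and 2 gained, and the counts against mock were 30, 26 and 24 at day 2 and 29, 29 and 28 at day 7. The labels do not say that replicate numbers pair the samples, and the main fit did not pair them. Same-numbered libraries of different groups had correlations of deviations from -0.213 to 0.274 over 84 pairs. The highest was between replicate 3 of AGHMT and of GHMT at day 2, beside 0.0937 and 0.072 for replicates 1 and 2. Whether these libraries shared an effect was not tested. Per kb of coding sequence in place of all exons, the rank within the cluster went from 6 to 2 for Hoxa9, 2 to 3 for Hoxa11, 3 to 2 for Hoxb4 and 2 to 4 for Hoxb7. Genes near or under 3 counts per library are limited by depth, which were Hoxb1 in every group, Hoxd1 with the cocktails and Hoxd12 with GHMT and AGHMT at day 7.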
